A study of Rattus norvegicus with 24 samples.

Results

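The transcripts described here are those of 7 hormone genes of the anterior pituitary, measured in thyroid gland samples: Prl, Gh1, Pomc, Cga, Tshb, Lhb and Fshb. They were taken by name, as every non-control probe whose gene name on the array was one of these 7 symbols, and each gene had 1 such probe, so 7 of the 26258 genes on the array are described. The names themselves had been picked because several of these transcripts were high on night arrays of acrylamide-treated males, so the values of that contrast are given as a description and without a test.

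The samples were whole thyroid glands of RccHan Wistar rat pups, 1 sample per Agilent 1-colour array, labelled with Cy3. In the acrylamide groups, mated females drank water with acrylamide, dosed to 3 mg per kg of body weight daily, from gestational day 6, and exposure of the offspring went on to postnatal day 35 ± 3. The control groups received tap water. The 24 arrays form 6 groups of 4: control and acrylamide females collected at night (10 PM), control and acrylamide males collected at night, and control and acrylamide females collected in the morning (10 AM). The labels do not say from which litter a gland came or tie the replicate numbers to animals, so a p-value here reflects only how far these samples spread, which may be technical, and the number of arrays limits the precision.

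In the pituitary, lactotrophs make prolactin, somatotrophs make growth hormone, corticotrophs and melanotrophs make pro-opiomelanocortin, and thyrotrophs and gonadotrophs make the glycoprotein hormones, which pair a common alpha subunit (Cga) with a specific beta subunit (Tshb, Lhb or Fshb). Of these hormones, thyrotropin acts on the thyroid: it binds the thyrotropin receptor of follicular cells and drives iodide uptake and hormone synthesis. A thyroid gland is a target of the pituitary and is not known as a main site at which prolactin or growth hormone is made, although Pomc transcripts are found at low levels in many tissues.

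The probes themselves are shown because every value below is the signal of 1 probe sequence. Each is 60 bases long, and the positions are those of the array's annotation on the rat genome build rn4. Bases in capitals are the longest run that the probe shares, on the same strand, with any other probe on the array, and this run was 12 to 14 bases over the 7 probes. Read from their letters, as no transcript annotation of that build was used, 3 probes lie in the end of the coding sequence, that of Pomc running a few bases past the stop codon, and are printed whole. The first 30 bases are printed of the other 4, which lie in or reach into the untranslated end of the transcript. The shared run of the Prl probe goes on to base 31, and that of the Lhb probe, bases 44 to 57, lies beyond the bases printed. The Gh1 probe lies at chr10:95692241-95692300 on the minus strand, the Pomc probe at chr6:26937625-26937684 on the plus strand and the Fshb probe at chr3:92569344-92569403 on the minus strand.
Gh1: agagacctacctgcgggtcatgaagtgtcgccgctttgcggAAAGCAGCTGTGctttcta
Pomc: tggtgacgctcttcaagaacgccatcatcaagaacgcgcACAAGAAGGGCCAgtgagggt
Fshb: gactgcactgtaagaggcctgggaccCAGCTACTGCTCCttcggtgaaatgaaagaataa
The Prl probe lies at chr17:44699179-44699238 on the minus strand, the Cga probe at chr5:51550265-51550324 on the plus strand, the Tshb probe at chr2:197908322-197908381 on the minus strand and the Lhb probe at chr1:95893918-95893977 on the plus strand.
Prl, first 30 bases: gcctacattcattccatgTACATCTGAGAT
Cga, first 30 bases: ccatcgaCAGTCTCTTCTCattaggggaaa
Tshb, first 30 bases: ctggTTAACTGTAATGGCaatgcaatctgg
Lhb, first 30 bases: actaactccccattcttctggagccagcag

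The levels are log2 of the scanner's processed intensity minus the 75th percentile of the same array, so that 0 is the 75th percentile of an array and a step of 1 is a doubling. A probe counts as well above background on an array where the scanner software flagged at least 1 of its 2 spots so. Some of these calls rest on 1 spot, among them Prl in night control male 3, Gh1 in night control female 2 and Cga in night control female 1. Thyroglobulin (Tg), the defining transcript of follicular cells, was between 7.95 and 9.27 on all 16 night arrays and between 6.43 and 7.51 on 7 of the 8 morning arrays, where its probe was saturated and these values are lower limits, but was -0.85 in morning acrylamide female 1. Parathyroid hormone (Pth) was -0.23 in night acrylamide male 4, against 7.87 to 8.47 on the other night arrays. The Y-linked Ube1y1 was not well above background in that male (-6.44), against -4.16 to -3.13 in the other 7 males, and was well above background in morning control female 4 (-4.56). These 3 arrays therefore stand apart from their labels or groups, and the hormone differences between acrylamide and control that they enter are also given without them. Comparisons of night with morning are given with all arrays only. Other morning arrays also differed in tissue markers and were kept. Pth was -2.955 in acrylamide female 3 and 2.954 in control female 1. It was 6.37 to 7.45 in controls 2 to 4 and acrylamide females 2 and 4. The T cell transcript Cd3e was -0.39 in acrylamide female 2, against -7.50 to -3.58 on the other morning arrays. Morning values without the 3 arrays still include these. On both night slides row 1 held the controls and row 2 the acrylamide samples, so treatment and row cannot be told apart there, nor can sex and slide. All morning arrays were on other slides and in another scan session than the night arrays, so time of day and scan session cannot be told apart. In whole glands, more cells of a type and more transcript per cell cannot be told apart either.

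Prolactin had the widest range of the 7 transcripts. In control females at night the level of Prl was -7.15, -7.92, -6.79 and -4.20 in replicates 1 to 4, and only replicate 4 was well above background. In acrylamide females at night it was -8.25, -0.32, -1.32 and -1.76. Replicates 2 to 4 were well above background and higher than every control, whereas replicate 1 was not well above background, like 3 of the controls, so the groups overlapped. The difference of the means was 3.60 (SE 1.37, n = 4 and 4) on the log2 scale, with an adjusted p of 1 by limma's moderated test over 20317 genes (unadjusted p = 0.016). Leaving out single arrays gave differences from 2.74 to 5.38, the highest being without acrylamide replicate 1 (limma adjusted p of 0.838). Over the other settings the lowest difference was 2.13. In control males at night Prl was -7.58, -8.23, -6.23 and -7.54, with replicate 3 alone well above background. The acrylamide males had 3.30, 3.90, -1.62 and -1.82. All 4 were well above background and above every control, and replicates 1 and 2 stood well above replicates 3 and 4. The group means were 0.94 ± 3.08 (SD, n = 4) and -7.39 ± 0.84 (SD, n = 4), a difference of 8.33. Since 3 of the 4 controls were not well above background, the size depends on how background is treated: with the normexp correction the difference was 5.25. Without male 4, which stands apart, it was 9.25. In the morning Prl was not well above background on any array: controls had -6.93, -7.16, -7.22 and -6.75 and acrylamide females -6.99, -7.60, -7.61 and -7.20. These values cannot be ordered, and the fitted difference was -0.33 (SE 1.37, limma adjusted p = 0.897), or -0.37 without the 3 arrays.

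**Figure D1:**
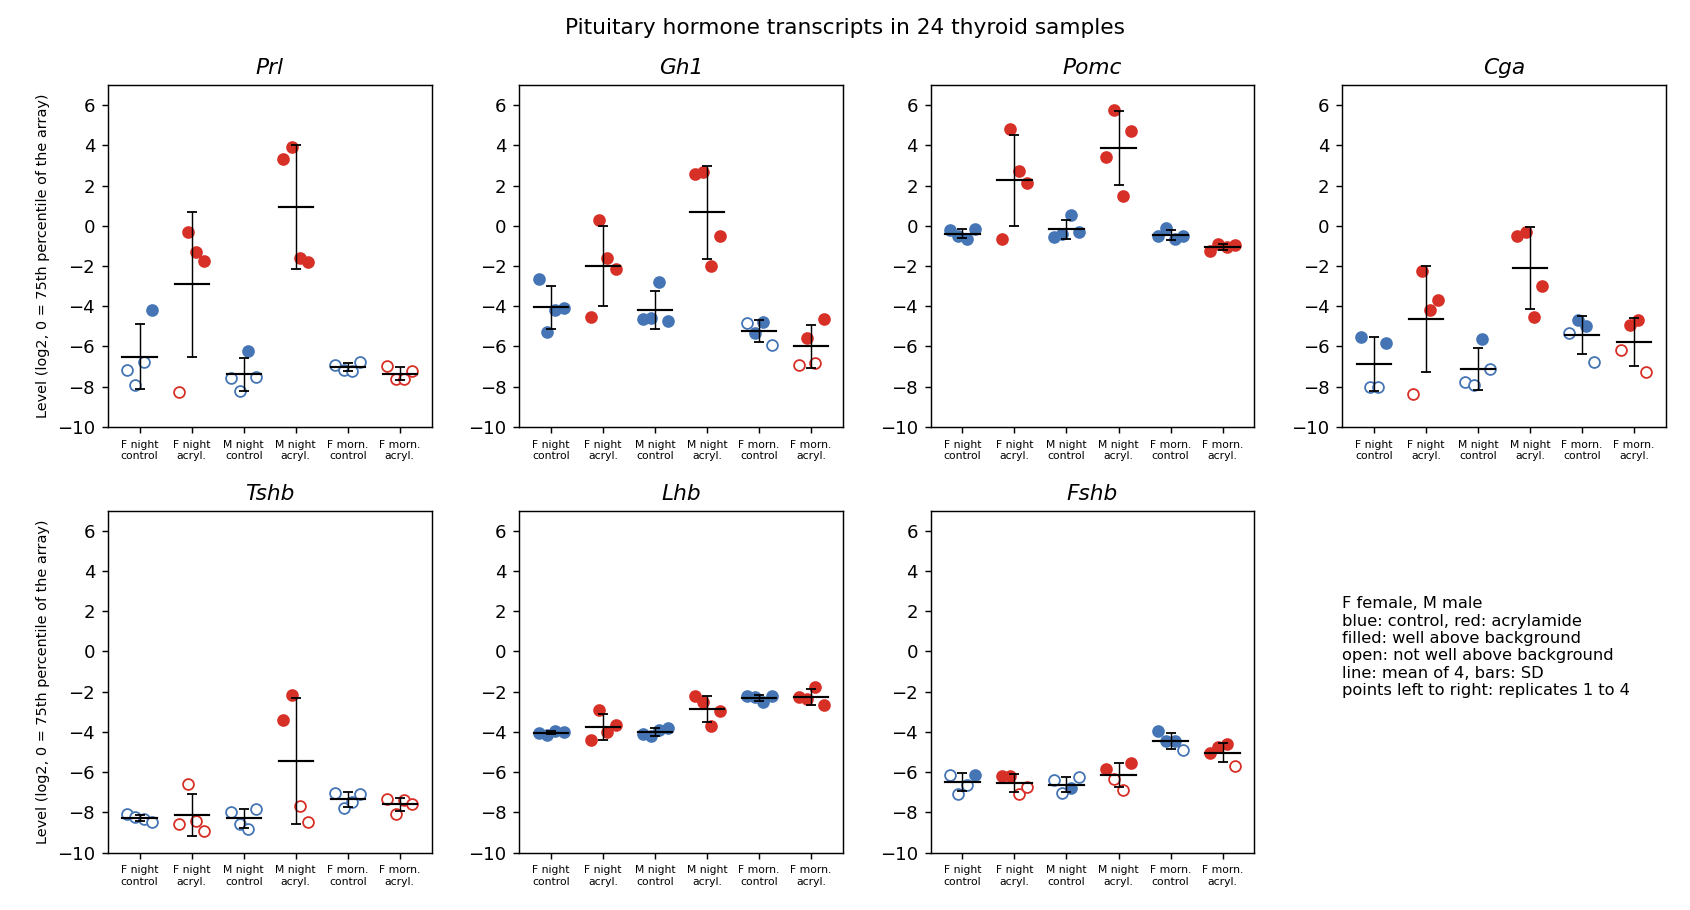
Levels of the 7 hormone transcripts on every array, on a log2 scale where 0 is the 75th percentile of the array. Blue points are controls and red points acrylamide samples, filled where the probe was well above background, with the mean and SD of each group of 4. On 7 of the 8 night acrylamide arrays, the exception being night acrylamide female 1, Prl, Gh1, Pomc and Cga are above every night control of the same sex. Prl, Gh1 and Pomc are there also above all morning arrays, while the Cga of acrylamide male 3 (-4.54) is close to the highest morning level (-4.68).

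Growth hormone followed the same arrays. Gh1 was well above background on all 16 night arrays. Control females at night had -2.64, -5.27, -4.19 and -4.11, and acrylamide females -4.51, 0.29, -1.59 and -2.13. Acrylamide replicates 2 to 4 were above every control and replicate 1 lay among them. The difference was 2.07 (SE 0.96, limma adjusted p = 1), and 1.31 without acrylamide replicate 2, the highest of the group. In males the controls had -4.62, -4.59, -2.78 and -4.75. The acrylamide males had 2.55, 2.67, -1.98 and -0.53. The groups did not overlap, with means of -4.18 ± 0.94 and 0.68 ± 2.31 (SD, n = 4 each), a difference of 4.86 or 29.1-fold, and of 5.26 without male 4. As for Prl, male replicates 1 and 2 were the highest arrays of the series. In the morning the controls had -4.85, -5.36, -4.77 and -5.92 and the acrylamide females -6.92, -5.58, -6.84 and -4.65. Gh1 was well above background on 2 arrays of each morning group, the groups overlapped, and the difference of -0.77 (SE 0.96) had an adjusted p of 0.639 by limma, and was -0.70 without the 3 arrays that stand apart. Within the morning slide that held 3 controls and 2 acrylamide samples the difference was -1.22, and within the slide that held 1 control and 2 acrylamide samples it was 0.14.

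Pomc, the precursor of corticotropin, melanocyte-stimulating hormone and beta-endorphin, was well above background on all 24 arrays, the controls included. Its night controls were close together, at -0.23, -0.52, -0.64 and -0.18 in females and -0.57, -0.39, 0.53 and -0.29 in males. Acrylamide females at night had -0.68, 4.81, 2.74 and 2.13. Replicates 2 to 4 were above every control and replicate 1 was just below them all. The difference was 2.64 (SE 0.81, limma adjusted p = 1, unadjusted p = 0.00361), and it ranged from 1.79 without acrylamide replicate 2 to 3.62 without acrylamide replicate 1. Acrylamide males had 3.42, 5.75, 1.48 and 4.73. All were above every male control, and the means of 3.85 ± 1.84 and -0.18 ± 0.49 (SD, n = 4 each) differed by 4.03, or 16.3-fold, and by 3.73 without male 4. The order of the arrays was not that of Prl: male 4 was second highest for Pomc and lowest of the males for Prl. In the morning the direction was the other one. Controls had -0.50, -0.09, -0.65 and -0.53, and acrylamide females had -1.27, -0.91, -1.06 and -0.98. The acrylamide arrays were all below the controls, but the difference of -0.61 (SE 0.81) had an adjusted p of 0.657 by limma. It was -0.57 and -0.60 within the 2 morning slides, and -0.57 without the 3 arrays that stand apart.

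Cga encodes the alpha subunit common to thyrotropin, lutropin and follitropin. Control females at night had -5.54, -8.03, -8.00 and -5.84, with replicates 1 and 4 well above background, and acrylamide females had -8.37, -2.24, -4.19 and -3.69. Replicates 2 to 4 were again above every control, and replicate 1 was not well above background, like controls 2 and 3. The difference was 2.23 (SE 1.09, limma adjusted p = 1). It was 1.44 without acrylamide replicate 2, 3.48 without acrylamide replicate 1 and 0.95 with the normexp correction. In males the controls had -7.77, -7.92, -5.62 and -7.14, and replicate 3 alone was well above background. The acrylamide males had -0.51, -0.31, -4.54 and -3.01, all 4 well above background and above every control. The means were -7.11 ± 1.05 and -2.09 ± 2.04 (SD, n = 4 each), a difference of 5.02, which was 2.46 with the normexp correction and 5.33 without male 4. In the morning the controls had -5.34, -4.68, -4.97 and -6.80 and the acrylamide females -6.20, -4.94, -4.70 and -7.28, with 2 arrays well above background in each group. The groups overlapped, with a difference of -0.33 (SE 1.09, limma adjusted p = 0.868), or -0.64 without the 3 arrays.

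The 3 beta subunits differed from Cga in level and in detection. Tshb, the thyrotropin beta subunit, was well above background on 2 of the 24 arrays, acrylamide males 1 and 2 at night, and did not pass the filter for the test. Those males had -3.41 and -2.18, and males 3 and 4 had -7.70 and -8.47. The control males had -7.98, -8.56, -8.80 and -7.84, so that males 1 and 2 were clear of the controls and males 3 and 4 were not. The difference of the measured means was 2.86, 1.77 without male 2 and 3.87 without male 4, and it has no exact size, since the probe was not well above background on any control or on males 3 and 4. In females at night the controls had -8.09, -8.23, -8.35 and -8.46 and the acrylamide samples -8.57, -6.59, -8.42 and -8.93. None of these was well above background, and the values cannot be ordered. On the morning arrays Tshb was between -8.07 and -7.01.

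Lhb, the lutropin beta subunit, was well above background on every array. Control females at night had -4.05, -4.14, -3.95 and -3.98 and control males -4.10, -4.20, -3.89 and -3.78. Acrylamide females had -4.40, -2.89, -4.02 and -3.63, of which replicates 2 and 4 were above the controls and replicate 1 below them. Their difference was 0.29 (SE 0.29, limma adjusted p = 1), and 0.01 without acrylamide replicate 2. Acrylamide males had -2.22, -2.50, -3.71 and -2.97. All were above the male controls, by a mean of 1.14 or 2.21-fold, with means of -2.85 ± 0.65 and -3.99 ± 0.19 (SD, n = 4 each), and by 1.18 without male 4. The morning controls had -2.23, -2.28, -2.50 and -2.23 and the morning acrylamide females -2.24, -2.37, -1.75 and -2.67, with a difference of 0.05 (SE 0.29, limma adjusted p = 0.929) whose sign turned with the normexp correction, and which was 0.07 without the 3 arrays.

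Fshb, the follitropin beta subunit, was low and often undetected at night. Control females had -6.14, -7.07, -6.64 and -6.15 and acrylamide females -6.21, -6.19, -7.11 and -6.73. The control males had -6.41, -7.05, -6.77 and -6.24 and the acrylamide males -5.84, -6.32, -6.87 and -5.55. Both pairs of groups overlapped, with differences of -0.06 (SE 0.31, limma adjusted p = 1) in females and 0.47 in males (0.27 without male 4), and on 10 of the 16 night arrays the probe was not well above background. In the morning Fshb was well above background on 3 arrays of each group, at -3.94, -4.46, -4.46 and -4.90 in controls and -5.03, -4.75, -4.62 and -5.70 in acrylamide females. The acrylamide mean was 0.58 lower by point estimate (difference -0.58, SE 0.31, limma adjusted p = 0.254), and the groups overlapped. Without the 3 arrays the difference was -0.73, with a limma adjusted p of 0.396.

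Counted over the transcripts, 6 of the 7 passed the filter, which asked for a probe well above background on at least 3 arrays of 1 group. Prl and Cga met this only in the acrylamide night groups, and Fshb only in the morning groups. Whether they were tested thus depended on the groups compared. In males at night the acrylamide arrays lay wholly above the controls for 5 of these 6 (Prl, Gh1, Pomc, Cga and Lhb), where 2.99% of the 20317 genes tested did so. Because the names were picked on this contrast, nothing is read from that count. In females at night none of the 6 was free of overlap, where 3.73% of all genes tested lay wholly above and 1.73% wholly below the controls. In morning females 1 of the 6, Pomc, lay wholly below the controls, as did 6.69% of all genes tested, and none lay wholly above them, as did 1.88%. By limma's adjusted p none of the 6 passed 0.05 in females at night, where 0 of all genes passed (0%) and 383 had an unadjusted p under 0.05 (1.89%). None passed in morning females, where 422 genes passed (2.08%), a count that fell to 26 without the 3 arrays that stand apart. In males at night 0 genes passed, and 2767 had an unadjusted p under 0.05 (13.6%). The difference between the effect at night and in the morning in females was itself tested. It was 3.93 (SE 1.94, limma adjusted p = 0.318) for Prl and 3.25 (SE 1.14, limma adjusted p = 0.228) for Pomc. For Gh1 it was 2.84 (SE 1.36, limma adjusted p = 0.306) and for Cga 2.56 (SE 1.54, limma adjusted p = 0.406). For Lhb and Fshb it was 0.24 (SE 0.41, limma adjusted p = 0.783) and 0.53 (SE 0.44, limma adjusted p = 0.557). Prl was not well above background on any morning array. Since Prl and Cga passed the filter only through acrylamide night groups, their values here are a description. No gene passed in that test.

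Single arrays carried these differences together. Measured from the control mean of the same sex at night, acrylamide male 2 was higher by 11.3 for Prl, 6.85 for Gh1, 6.81 for Cga, 6.11 for Tshb and 5.93 for Pomc. Acrylamide male 1 was higher by 10.7 for Prl, 6.74 for Gh1, 6.60 for Cga, 4.89 for Tshb and 3.60 for Pomc. Males 3 and 4 were lower than these: Prl was 5.77 and 5.58 above the control mean. For Pomc, male 4 was higher by 4.91 and male 3 by 1.67. Among females, replicate 2 was the highest for all 4 genes, higher by 6.20 for Prl and 5.20 for Pomc. Replicate 1 was not well above background for Prl or Cga, and it was below its control mean for Gh1 (-0.46) and Pomc (-0.28). It had a Tg level of 8.70 and lay on the same slide and row as the other acrylamide females.

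**Figure D2:**
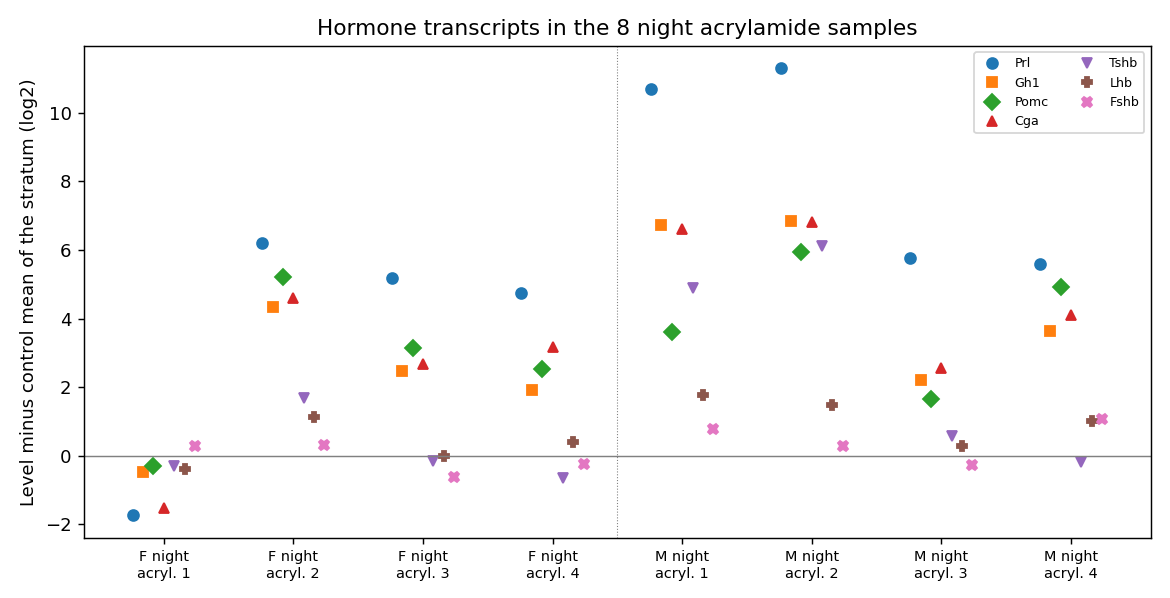
Level of each hormone transcript minus the mean of the 4 controls of the same sex, on the 8 night acrylamide arrays (log2 scale, 0 is the control mean). Prl has the largest difference on 7 of the arrays, and on acrylamide female 1 Prl, Gh1, Pomc and Cga are all below 0, with Prl and Cga not well above background there.

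Across the 16 night arrays the Pearson correlations between Prl, Gh1, Pomc and Cga ranged from 0.90 to 0.97 over the 6 pairs. They describe arrays that fall into a high and a low set and that share slides, and they carry no test. Over the 8 acrylamide arrays alone they were 0.80 to 0.98, and over the 8 night controls 0.37 to 0.84, the highest being that of Gh1 with Cga. Over the 8 morning arrays, where much of the signal was at background, they were -0.55 to 0.51. Lhb followed Gh1 with 0.92 over the 16 night arrays, and Fshb had no correlation above 0.54 with any of the others. Among the night controls, male 3 was the highest of its group for Prl, Gh1, Pomc and Cga, at -6.23, -2.78, 0.53 and -5.62, and it was the male control on which Prl and Cga were well above background. The control females did not share 1 highest array. Prl and Pomc were highest in replicate 4 (-4.20 and -0.18), and Gh1 and Cga in replicate 1 (-2.64 and -5.54), where Prl was not well above background.

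**Figure D3:**
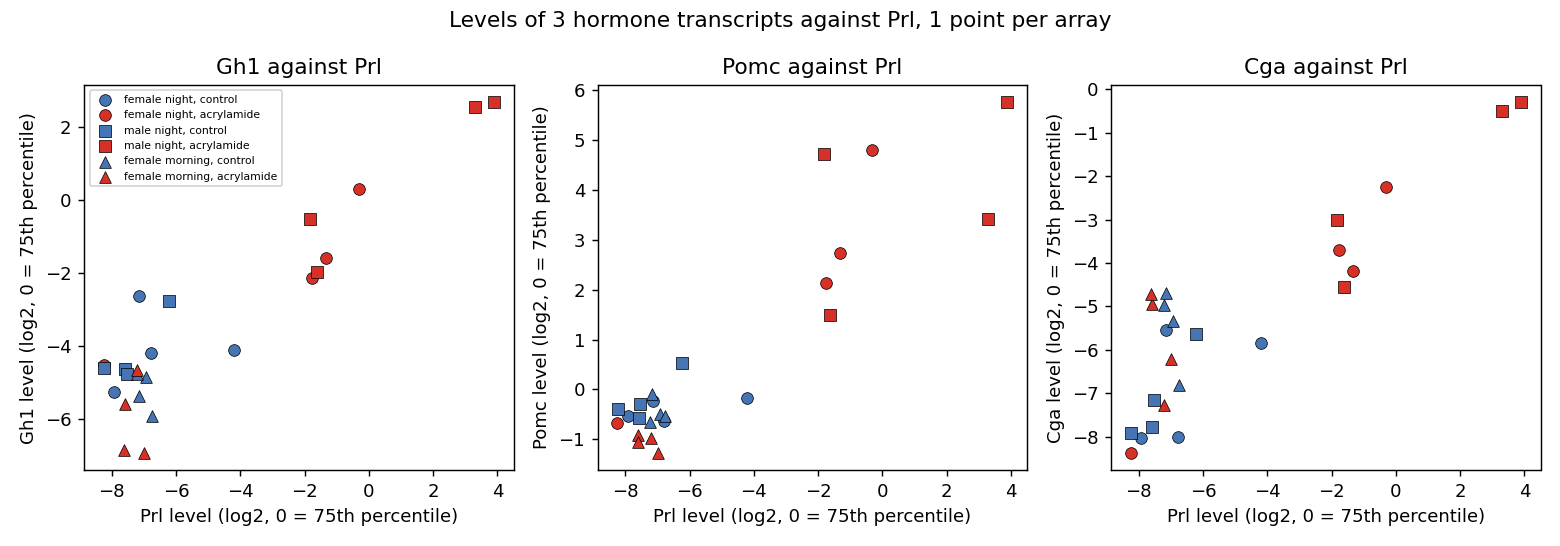
Levels of Gh1, Pomc and Cga plotted against Prl, 1 point per array, on log2 scales where 0 is the 75th percentile of the array. The acrylamide males at night extend to the upper right with acrylamide females 2 to 4, and acrylamide female 1 lies with the controls and the morning arrays.

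The spots of Prl, Gh1, Pomc and Cga were mostly close within an array where both were well above background. Each probe was printed in 2 spots, and over the arrays where both were well above background the median difference between them was 0.04 for Prl (8 arrays), 0.07 for Gh1 (17 arrays), 0.11 for Pomc (24 arrays) and 0.14 for Cga (11 arrays) on the log2 scale. The largest differences were 0.158, 0.645, 0.305 and 0.52 in that order. Arrays with 1 such spot are left out of these values, among them night control male 3 for Prl, with spot intensities of 15.8 and 35.8. No spot of the 7 genes was saturated. For Lhb the median spot difference was 0.34 (24 arrays), about as large as its difference in night females, and for Fshb it was 0.41 (6 arrays). The largest spot differences of these were 0.852 for Lhb and 1.476 for Fshb.

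Among the controls no sex difference was detected in these transcripts. Control males minus control females at night was -0.88 (SE 1.37) for Prl, -0.13 (SE 0.96) for Gh1, 0.21 (SE 0.81) for Pomc and -0.26 (SE 1.09) for Cga, each with a limma adjusted p of 1, where 2 of all genes passed (0.00984%). Between night and morning control females the gonadotropin beta subunits differed. Lhb was lower at night, at -4.03 ± 0.08 against -2.31 ± 0.13 (SD, n = 4 each), a difference of -1.72 (SE 0.29, limma adjusted p = 4.36e-05). Fshb was also lower at night, at -6.50 ± 0.45 against -4.44 ± 0.39 (SD, n = 4 each), a difference of -2.06 (SE 0.31, limma adjusted p = 1.35e-05), but it was well above background on 1 of the 4 night controls, so the size is uncertain. Probes that were not well above background on any of these 8 arrays (5062 probes) had a median difference of -0.955 between the same groups, and their part in the Fshb difference was not tested. Both adjusted p-values were also below 0.05 with normexp, quantile scaling, the deposited matrix and slide as a random block, the smallest differences being -1.46 for Lhb and -1.16 for Fshb. In this comparison 48.6% of all genes passed, 27.8% in the lower direction, and time of day cannot be told apart from slide and scan session. Prl, Gh1, Pomc and Cga had differences of 0.50, 1.17, 0.05 and -1.41 there, with limma adjusted p of 0.793, 0.337, 0.967 and 0.305. With the normexp correction these became -0.85, -0.31, -0.05 and -1.24, so that the sign turned for Prl, Gh1 and Pomc and the adjusted p of Cga was 0.0478.

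Among other genes that pituitary cells use, none of those tested passed at night, where 0 of the 20317 genes tested passed in either sex. That none passed at night thus holds for every list below and separates no list from the hormone genes. Pou1f1, the factor that drives Prl, Gh1 and Tshb in the pituitary, was well above background on every array, and its difference was 0.07 (SE 0.25, limma adjusted p = 1) in females and -0.05 (SE 0.25) in males. Of 18 transcription factors of the anterior pituitary 11 were tested, none passed in any of the 3 comparisons, and the median difference was -0.03 in night females and -0.02 in night males, beside 0.03 and 0.01 over all genes. Among the tested factors, Lhx4 differed by -1.44 (SE 0.67) and Insm1 by -0.24 (SE 0.27) in night males. The other 7 were not tested, and of these Neurod1, Neurod4, Six6, Foxl2 and Pax7 were not well above background on any night array. Across the list, 10 to 11 of 18 factors were well above background on each acrylamide night array and 11 to 12 on each night control, and their summed level was 1.49 to 2.17 in acrylamide males against 1.83 to 2.47 in control males. The part of pituitary cells in these values was not tested.

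Receptors through which hypothalamic factors and oestrogen act on the pituitary formed the next list. Of its 10 genes 5 were tested and none passed, with a median difference of -0.11 in night females and 0.17 in night males. The largest tested differences in males were -0.99 (SE 0.61) for the oestrogen receptor Esr1, 0.40 (SE 0.28) for the somatostatin receptor Sstr5 and 0.26 (SE 0.32) for the dopamine receptor Drd2. The receptor for gonadotropin-releasing hormone, Gnrhr, was not well above background on any array. The thyrotropin-releasing hormone receptor Trhr was likewise not well above background on any array, night or morning.

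Genes of the secretory granule, which stores peptide hormones in pituitary cells and also in the thyroid's calcitonin-producing C cells, were all tested. None of the 12 passed in any comparison, and the median difference was 0.06 in night females, 0.33 in night males and -1.45 in morning females. Without the 3 arrays that stand apart the median was 0.33 in night males and -0.41 in morning females. Vgf was the largest in night males at 1.03 (SE 0.60), with no control male well above background, followed by Chga at -0.72 (SE 1.56), which turned to 0.32 without male 4, and Pcsk1, a convertase that cleaves pro-opiomelanocortin, at 0.57 (SE 0.62). The C cell hormone Calca differed by 0.29 (SE 1.42) and 0.26 (SE 1.42) at night.

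Hormones of the hypothalamus and the posterior lobe were looked at next. Of 9 genes 8 were tested and none passed. Avp, which encodes vasopressin, differed by -0.22 (SE 0.24) in night females and -0.36 (SE 0.24) in night males, and Oxt, which encodes oxytocin, by 0.04 (SE 0.16) and -0.10 (SE 0.16). The somatostatin gene Sst had the largest difference in males, 0.69 (SE 1.32), and Pmch had -0.31 (SE 0.32). Of 8 genes of brain tissue 7 were tested and none passed: Stmn2 differed by 1.02 (SE 0.34) in night males and -0.39 (SE 0.34) in night females, Mbp by -0.65 (SE 0.70), Snap25 by 0.40 (SE 0.27) and Gfap by 0.05 (SE 0.58) in night males.

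The placental members of the prolactin family, paralogs of Prl and Gh1 with probes of their own, were mostly undetected at night. Of 22 probed genes 15 were not well above background on any night array, and 4 were tested, none passing at night. Prl7b1, although tested through its morning signal, was among the 15 and has no measured night difference. In night males Prl8a3 differed by -0.19 (SE 0.38), with 2 arrays of each group well above background, and Prl6a1, well above background on every array, by 0.15 (SE 0.28). In morning females Prl6a1 fell by 1.19 (SE 0.28, limma adjusted p = 0.0411), where 1.65% of all genes passed in that direction and 0.423% in the other. Without the 3 arrays that stand apart, its difference was -0.96, with an adjusted p of 0.11.

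The thyroid samples also held receptors and targets of these hormones. Of 10 receptor genes 9 were on the array, 4 were tested and none passed. The thyrotropin receptor Tshr differed by 0.34 (SE 0.63) in night females and 0.24 (SE 0.63) in night males, the growth hormone receptor Ghr by -0.26 (SE 0.32) and -0.41 (SE 0.32), and the prolactin receptor Prlr by -0.18 (SE 0.42) and 0.18 (SE 0.42). Of 11 genes that growth hormone or prolactin signalling is known to act through or induce, all were tested and none passed, with median differences of 0.06 in night females and -0.10 in night males, the latter turning to 0.05 without male 4. The largest in night males were the signalling factor Stat5b at -0.93 (SE 0.39), Igfals at 0.64 (SE 0.29) and Igfbp3 at 0.51 (SE 0.24).

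**Figure D4:**
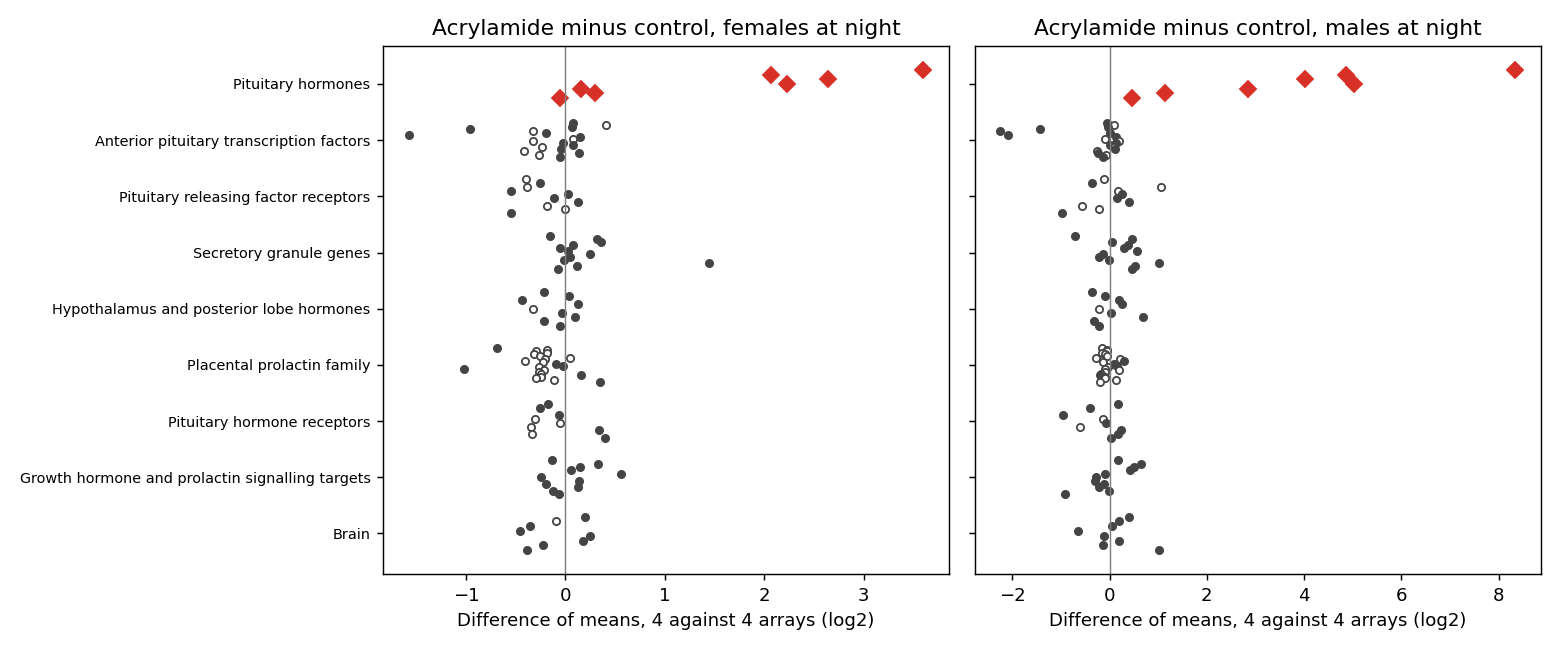
Difference between acrylamide and control means (log2) in night females and night males for the 7 hormone genes (red diamonds) and for the genes of 8 related lists (circles, filled where well above background on at least 1 array of that comparison). Prl, Gh1, Pomc and Cga lie between 2.07 and 8.33, to the right of nearly all genes of the lists shown, which are spread around 0. Tshb, Lhb and Fshb lie between -0.06 and 2.86. The names were picked on the night males, and their values in night females were also known beforehand, so their position in either panel is a description. The T cell list, with a median of 1.40 in night females, is not shown.

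Transcripts of neighbouring tissues were compared on the same arrays. Of 15 follicular genes none passed at night, and the median difference was 0.07 in females and 0.43 in males. The largest in males were Hhex at 1.26 (SE 0.62), Duoxa2 at 0.89 (SE 0.48) and Slc5a5, the iodide transporter, at 0.77 (SE 1.18). In morning females Duox2 fell by 0.82 (limma adjusted p = 0.043) and Foxe1 by 1.14 (limma adjusted p = 0.0394). All 9 skeletal muscle genes had lower means in the acrylamide groups at night, none passing, with a median of -1.37 in females and -1.77 in males, and their summed level was 5.57 to 10.8 in acrylamide males against 10.07 to 11.2 in control males. Myh2 differed by -2.80 (SE 1.12), Myh4 by -2.71 (SE 1.19) and Acta1 by -2.58 (SE 1.11) in night males. Of 11 tested T cell genes none passed, with medians of 1.40 and 0.63 at night and the receptor component Cd3e at 2.68 (SE 1.36) in night females. The C cell, parathyroid and oesophageal lists had medians of -0.07, -1.998 and -0.12 in night males, with none passing. Without male 4 these medians were 0.18, 0.13 and -0.03, so the first 2 turned. In morning females Krt13, an oesophageal keratin, rose by 4.78 (limma adjusted p = 0.0415). Without the 3 arrays that stand apart, the adjusted p was 0.112 for Duox2, 0.171 for Foxe1 and 0.215 for Krt13. The part of these tissues in the hormone values was not tested.

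The genes whose pattern was most like that of Prl over the 16 night arrays, among 14224 genes with a symbol, were Cklf, Lrrc59, Htatip2, Alg11, Acer2, Srxn1, Kcnh4, Dynll2, Gtf2f2 and Bmp2, in that order. The highest Pearson correlation was 0.83, for Cklf, beside the 0.90 to 0.96 of Prl with Gh1, Pomc and Cga. The hormone genes were picked for high values on arrays among these 16, so the values cannot be ranked against each other. Over the 8 night controls alone the correlations of Prl with Gh1, Pomc and Cga were 0.37, 0.41 and 0.64. The difference of Cklf was 0.23 (SE 0.20, limma adjusted p = 1) in night females and 0.53 in night males. Set against the averaged level of these 4 hormone genes, the first was Lrrc59 (0.83) and the second Oacyl (0.82). Oacyl was well above background on 4 of the 16 night arrays, acrylamide males 1, 2 and 4 and acrylamide female 2, at -3.78, -3.86, -4.53 and -4.78, and on none of the control males. These lists describe likeness over arrays that share slides.

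The promoters of 3 of the genes that were high on the same arrays are shown to allow their sequences to be compared. RefSeq's table for the build GRCr8 held 5 of the 7 genes, and the windows are the 250 bases before the annotated start, in the direction of transcription. Capitals mark matches on either strand to 3 motifs. The letters ATGNATA resemble the site of the Pou1f1 product, the letters TGANGTCA resemble a cAMP response element, and the letters TATAAA are those of a TATA box. Among 33469 promoters of this length, 8.7%, 8.9% and 12.9% held a match. The Prl window, chr17:38298218-38298467 on the minus strand, held the Pou1f1-like motif beginning 24 bases before the start and the TATA box letters on the reverse strand 144 bases before it. The Pomc window, chr6:32659103-32659352 on the plus strand, held the TATA box letters 32 bases before the start. The Cga window, chr5:54283090-54283339 on the plus strand, held the cAMP-response-like motif 209 and 138 bases and the TATA box letters 29 bases before the start, and no matches overlapped. A match is a run of letters and not a measured site.
Prl promoter: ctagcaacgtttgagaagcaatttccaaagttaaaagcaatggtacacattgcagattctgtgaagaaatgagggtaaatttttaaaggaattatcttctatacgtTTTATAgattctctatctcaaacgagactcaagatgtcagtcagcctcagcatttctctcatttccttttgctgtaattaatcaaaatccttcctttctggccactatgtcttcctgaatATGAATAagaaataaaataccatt
Pomc promoter: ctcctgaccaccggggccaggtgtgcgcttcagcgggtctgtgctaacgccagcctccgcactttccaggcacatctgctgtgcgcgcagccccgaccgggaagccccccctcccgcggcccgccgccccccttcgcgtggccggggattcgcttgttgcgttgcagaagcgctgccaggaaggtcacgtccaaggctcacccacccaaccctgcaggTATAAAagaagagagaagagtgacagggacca
Cga promoter: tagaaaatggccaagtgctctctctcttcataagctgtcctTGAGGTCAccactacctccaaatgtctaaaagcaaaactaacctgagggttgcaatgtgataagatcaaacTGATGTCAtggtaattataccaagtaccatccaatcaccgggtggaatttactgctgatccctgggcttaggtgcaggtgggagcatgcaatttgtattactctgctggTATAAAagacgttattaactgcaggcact
The windows of Tshb and Lhb held the TATA box letters 23 and 28 bases before the start and neither of the other motifs, so that no motif of the 3 other than the TATA box was found in more than 1 of the 5 genes.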

How the data were processed

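The deposited files hold, per the file headers, spot intensity from Agilent Feature Extraction 10.1.1.1: background and spatial trend were removed within each array, and nothing was scaled between arrays. The deposited matrix of log2 values followed log2 of that processed intensity minus a constant per array, with a column median of 0. How the authors chose that constant is not given in the sources used here.

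Outlier-flagged and control spots were left out, the 2 spots of a probe were averaged, and log2 intensity minus each array's 75th percentile was analysed in R 4.3.3 with limma 3.58.1 (lmFit, eBayes, 24 arrays in 6 groups, Benjamini-Hochberg threshold 0.05). Probes well above background on at least 3 of 4 arrays of a group were kept (23450 of 30367), and the probe with the highest mean stood for a gene (20317 genes). Probes were named by accession (18005), symbol (2671), synonym (557) or the array's own name (9134).

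The hormone genes and all lists were chosen with earlier results of these data known. All 7 hormone genes are named. From each list the members passing the threshold, otherwise the 3 tested ones with the largest difference in night males, and its defining markers are named, with the 10 genes most correlated with Prl. Some members of the transcription factor list are not reported here by name. Oacyl, Lrrc59, Gnrhr and Trhr were also named, after their values were seen. Alternatives were normexp correction, quantile scaling, the deposited matrix, other filters, each comparison's arrays alone, slide and replicate blocks, and leaving out each array. The fit was tested on simulated data.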

Additional observations from a re-analysis of the deposited data

Results flagged for a closer look

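The Gh1 level of control male 3 at night, -2.778, lay apart from the other 3 control males, which were between -4.75 and -4.59. Of 42 groups of hormone values examined this way, 1 stood out, and chance alone flags about 1 in 20. The markers used to check the tissue and the labels gave 4 such values: Tg at -0.85 in morning acrylamide female 1, Pth at -0.23 in night acrylamide male 4, Pth at 2.954 in morning control female 1, and Ube1y1 at -6.442 in night acrylamide male 4.

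The point estimates for Pomc had opposite signs in different groups. In night males, the contrast on which the names were picked, the difference was 4.028. All 4 acrylamide arrays were above the controls there, as for 2.99% of all genes tested. In morning females the difference was -0.61 (SE 0.81, limma adjusted p = 0.657). All 4 acrylamide arrays were below the controls there, as for 6.69% of all genes tested. The difference between these effects was not tested, since sex, time of day, slide and scan session all differ between them.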

How the results depend on the processing

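Over the alternatives run, 360 of 371 hormone differences kept their direction and their side of the threshold or moved by less than 1 SD, and none passed the threshold in females. Prl, Gh1, Pomc and Cga were higher with acrylamide at night in both sexes in 19 of 19 settings, the main one included. The settings re-use the same arrays, and the names were picked on the night males, so that count is a description and not independent support. Of the tested differences 9 reversed. In morning females Lhb became -0.049 with normexp and -0.121 to 0.187 without single arrays, Prl became 0.043 with quantile scaling, and Cga ranged from -0.784 to 0.166. In night females Fshb ranged from -0.247 to 0.127 without single arrays. Tshb, untested and not well above background in females, also changed sign, to -0.356 without night acrylamide female 2 and to 0.053 in the morning with quantile scaling. The causes were not tested. Each gene had 1 probe, so another probe gave no value.

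The number of genes passing in night males, 0 in the report, was 5 with normexp, 2 with the deposited matrix, 1 without the filter, 4 with the night arrays alone (a choice made after seeing the data), and 0 to 8 without single arrays, reaching 4 without acrylamide male 1 and 8 without acrylamide male 3. In morning females, 422 became 222 with normexp (18 higher and 204 lower), 943 with quantile scaling (332 and 611), 12 with the matrix, 98 without the filter, 0 with the morning arrays alone, 26 without the 3 arrays that stand apart, also chosen after seeing the data, and 3 to 2129 without single arrays. It was 67, 3, 27 and 183 without controls 1 to 4, and 21, 1011, 2129 and 1700 without acrylamide samples 1 to 4. Between control sexes, 2 became 1 with quantile scaling, 5 without the 3 arrays and 1 to 3 without single arrays, 1 being without control female 2 or 4 or control male 3. With the replicate number as a block 2 genes passed in night males, 386 in morning females and 0 in night females. Correlations of same-numbered arrays ran from -0.229 to 0.439, so the criterion for pairing was not met, and 12 of 24 arrays correlated best with their own number, a hint from the data and not the design. On both night slides the number is also the array's column. With slide as a random block (correlation 0.054), 381 genes passed in morning females.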
